A study of Rattus norvegicus with 24 samples.

Results

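After 24 h of IRE1α induction in rat INS1 cells, 59 of the raised genes were chosen by their response to PAIR1 and KIRA9. When PAIR1 was given with the inducer, they kept at least 50% of the mean rise (median 56.7%). When KIRA9 was given, they kept at most 30% of it (median 18.1%). In 50 of the 59 each PAIR1 library stood above each uninduced one, as in 21.6% of the 13760 IDs tested and 62.1% of the raised IDs. The choice of the 59 used these same libraries. The 59 are Ensembl gene IDs, of 26689 in the deposited count table. They were picked by their own 24 h levels in CPM, the count scaled to a library total of 1 M counts. An ID had to average at least 5 CPM in induced cells, lie at least 1.5 times above uninduced cells with all 3 induced libraries above all 3 uninduced ones, keep at least 50% of that rise with PAIR1 and keep at most 30% of it with KIRA9. A further 5 IDs were left out by name, and 0 of them met the whole rule. The 24 h levels given here and below therefore describe the choice and carry no test. The 4 h libraries took no part in it and were tested.

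INS1 is a rat insulinoma line used in place of pancreatic beta cells, and every sample carried a doxycycline-inducible mouse IRE1α transgene. Uninduced cells received drug vehicles only. Induced cells received doxycycline with vehicle, PAIR1 or KIRA9, and RNA was taken at 4 h or 24 h, with 3 libraries in each of the 8 groups. No group received doxycycline without the transgene, so those parts cannot be told apart. No group received a compound without induction, so each compound is measured here in induced cells only. The labels give neither the doses of PAIR1 and KIRA9 nor whether the line is a single clone.

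IRE1α sits in the endoplasmic reticulum membrane and joins a kinase domain to an RNase domain. Once active it starts the splicing of XBP1 mRNA, which yields a transcription factor for protein folding genes, and under strong activation it also cuts many mRNAs at the reticulum, a process called regulated IRE1-dependent decay. Compounds that bind the ATP pocket of the kinase can shift the RNase in part or shut it down. The title of the series names the PAIR compounds as partial antagonists, and KIRA stands for kinase-inhibiting RNase attenuator.

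Library totals ran from 12.6 to 23.8 M counts. The deposited table pairs no ID with a gene name and 0 of its IDs matched the gene table at hand, so the transgene, the markers of beta cells and of other cell types and the pathway lists were not read, and at most 2 IDs per direction are printed. A set of 6 libraries spread over the vehicle and PAIR1 groups shared 41 IDs at levels above all 18 other libraries, and 0 of the 59 members were among them. Without the 4 of these that are 24 h libraries the rule chose 67 IDs, 23 of them among the 59. In the 6 induced vehicle libraries 4 h and 24 h are swapped between the time characteristic and the other labels, and the times in the titles were used. The RNA came from bulk cultures, in which fewer cells with a transcript and less transcript per cell cannot be told apart.

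The 59 members were a small and one-sided part of the response. Induction raised 1495 IDs by the first 3 conditions, and 829 of these kept at most 30% of the rise with either compound. A further 92 kept at least 50% with both compounds, and 116 kept at least 50% with PAIR1 and between 30% and 50% with KIRA9. The opposite pattern, at least 50% kept with KIRA9 and at most 30% with PAIR1, was met by 8 IDs. The median share kept over the 1495 was 26.0% with PAIR1 and 9.47% with KIRA9, and the share was larger with PAIR1 in 1346 of them. The members are thus one edge of a cloud of IDs in which PAIR1 mostly kept more of the rise than KIRA9, without a gap that sets them apart. Both shares are computed from the same uninduced and induced libraries.

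**Figure D1:**
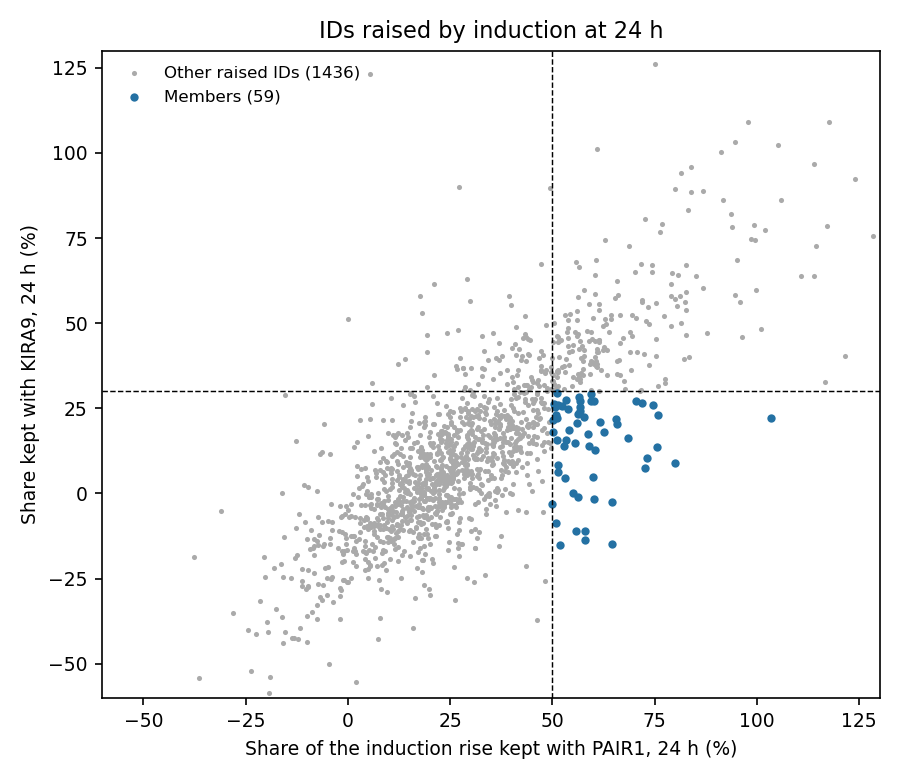
Share of the 24 h induction rise kept with PAIR1 (x axis, percent) against the share kept with KIRA9 (y axis, percent) for the 1495 raised IDs, with the 59 members in blue and the limits of 50% and 30% as dashed lines. The members border directly on other raised IDs at both limits, and 12 IDs lie outside the plotted range.

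Many members lay close to these limits. On the PAIR1 share a member stood at 50.2%, with a single one closer to the limit, and the nearest IDs outside stood at 49.6% and 49.5%. On the KIRA9 share the nearest members stood at 29.4% and 29.1% and the nearest IDs outside both at 30.1%. In all, 30 members lay within 5 percentage points of a share limit, and 82 raised IDs missed the rule by no more than that.

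The rises were modest. The ratio of induced to uninduced level at 24 h had a median of 1.64 over the members, with 23 members under 1.6 and 13 at 2 or more. Over all 1495 raised IDs the median was 1.69. Members were also less abundant than raised IDs in general, with a median induced level of 17.0 CPM against 38.7 CPM. The median share kept was 56.7% with PAIR1 and 18.1% with KIRA9. With PAIR1, 39 members kept under 60% and only 2 kept 80% or more, whereas with KIRA9 18 members kept under 10% and the KIRA9 mean of 11 lay below the uninduced mean.

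Added over the members, the level at 24 h was 1397 ± 14.9 CPM (SD, n = 3) in uninduced, 2417 ± 18.5 in induced, 2012 ± 16.9 in PAIR1 and 1598 ± 14.7 in KIRA9 cells. The sums of the single libraries ran from 1386 to 1414, 2396 to 2432, 1994 to 2027 and 1583 to 1612 CPM. The 4 groups did not overlap. By mean level, induced above uninduced and PAIR1 above both uninduced and KIRA9 follow from how the members were picked. KIRA9 below induced follows from the rule as well. The rule sets no lower limit on KIRA9 and no upper limit on PAIR1. It therefore does not fix the order of KIRA9 and uninduced cells or that of PAIR1 and induced cells. The library medians of the share kept were 54.9%, 60.9% and 58.2% in the PAIR1 libraries and 17.3%, 16.5% and 19.0% in the KIRA9 libraries, and each PAIR1 library was thus far above each KIRA9 library.

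**Figure D2:**
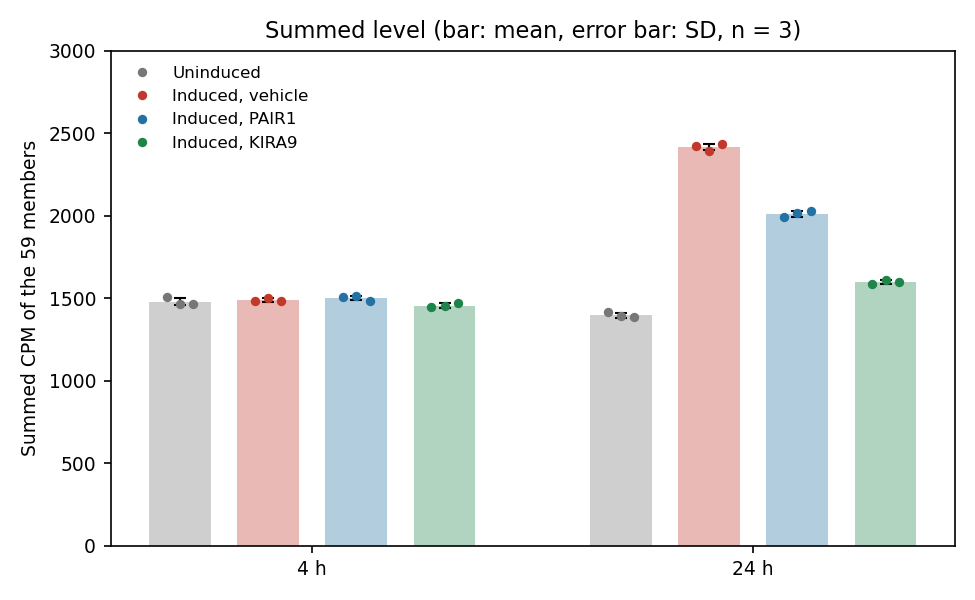
Summed CPM of the 59 members in uninduced, induced, PAIR1 and KIRA9 cells at 4 h and 24 h (bars, means; error bars, SD; points, the 3 libraries). At 4 h the groups stand between 1445 and 1513 CPM, and at 24 h they separate into uninduced, KIRA9, PAIR1 and induced in rising order.

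ENSRNOG00000028105, the most abundant member, shows the pattern with little spread. At 24 h it stood at 149, 147 and 144 CPM in the uninduced libraries and at 260, 260 and 261 CPM in the induced ones. With PAIR1 it stood at 203, 212 and 219 CPM and with KIRA9 at 173, 181 and 169 CPM. No library of one group reached the range of another, and the level was highest in induced and lowest in uninduced cells. The ratio of induced to uninduced means was 1.78, and 56.7% of the rise was kept with PAIR1 and 24.3% with KIRA9. Read in single libraries, the shares were 49.8%, 57.0% and 63.3% with PAIR1 and 23.3%, 30.2% and 19.4% with KIRA9, so even this member crossed each limit in 1 library of 3.

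Another member, not named because of the limit on printed IDs, held a wider gap between the compounds. It stood at 26.8, 23.0 and 22.9 CPM in uninduced and at 44.7, 45.2 and 42.5 CPM in induced libraries at 24 h. Its PAIR1 libraries stood at 35.8, 40.3 and 40.3 CPM and its KIRA9 libraries at 25.7, 25.9 and 27.2 CPM. The KIRA9 libraries overlapped the uninduced range and the PAIR1 libraries did not, and the shares kept were 73.1% and 10.3%.

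The member with the highest PAIR1 share among those with an even spread stood at 27.9, 22.2 and 20.4 CPM in uninduced and at 37.3, 37.9 and 37.8 CPM in induced libraries. It stood at 37.2, 39.4 and 37.8 CPM with PAIR1 and at 27.2, 25.5 and 27.2 CPM with KIRA9. PAIR1 and induced libraries overlapped fully for this member, at a share of 104%, while all 3 KIRA9 libraries lay inside the uninduced range.

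The largest ratio belonged to an ID with high and low libraries within the induced, PAIR1 and KIRA9 groups. ENSRNOG00000048561 had an induced to uninduced ratio of 27.8 at 24 h. Its uninduced libraries stood at 0.336, 0.371 and 0.626 CPM, its induced libraries at 18.6, 1.15 and 17.3 CPM, its PAIR1 libraries at 0.397, 9.88 and 12.3 CPM and its KIRA9 libraries at 0.543, 0.315 and 10.2 CPM. Over all 24 libraries 9 stood at 9.20 to 20.1 CPM and 15 at 0.131 to 2.78 CPM. At 4 h the high libraries were 1 of 3 induced (15.1 CPM), 2 of 3 PAIR1 (18.8 and 9.20 CPM) and 1 of 3 KIRA9 (20.1 CPM), and 0 of the 6 uninduced libraries were high. Without KIRA9 replicate 3 its KIRA9 share was -0.128% in place of 27.1%.

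A second member rested on a single library. It stood at 2.02, 2.35 and 2.05 CPM in uninduced, 5.89, 5.18 and 5.58 in induced and 2.24, 2.01 and 1.72 in KIRA9 libraries at 24 h, but at 2.86, 2.44 and 37.2 CPM in the PAIR1 libraries. Its PAIR1 share was 352% with all libraries, whereas without PAIR1 replicate 3 the PAIR1 mean was 2.65 CPM and the share fell below the limit of the rule. These 2 were the members with an over 8-fold spread inside a group. Without them 57 members remained, with no ratio above 2.91.

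**Figure D3:**
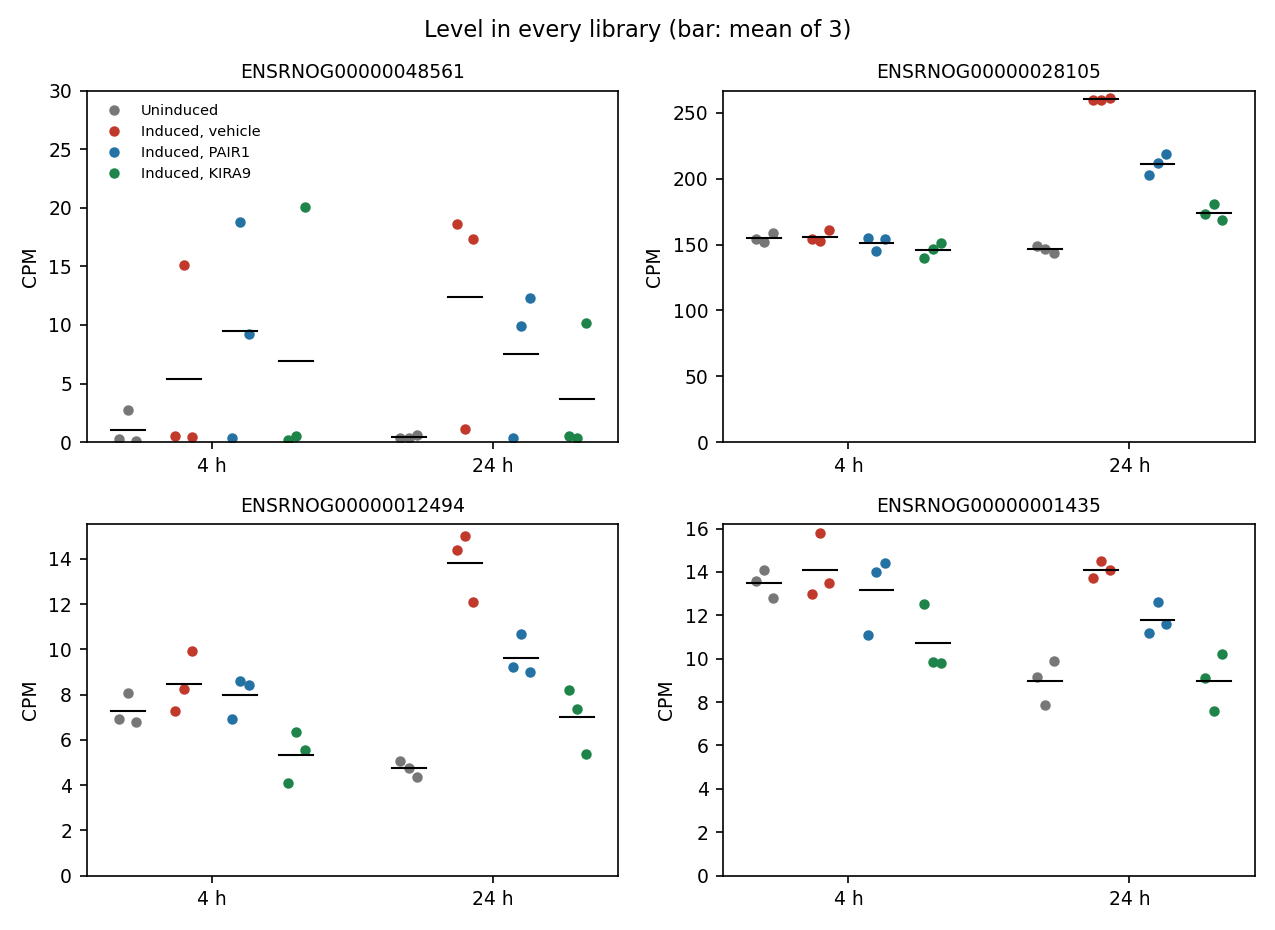
CPM of the 4 printed IDs in each of the 24 libraries (points; bars, means of 3), by treatment at 4 h and 24 h, each panel with its own axis from 0. ENSRNOG00000028105 shows separate groups at 24 h, and ENSRNOG00000048561 shows high and low libraries within the same group.

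In the median, the PAIR1 share varied less between libraries in more abundant members. The 14 members at 50 CPM or more in induced cells had a median SD of the PAIR1 share over libraries of 6.36 percentage points, against 13.9 for the 27 members from 10 CPM up to that level and 27.0 for the 18 members under 10 CPM. The lowest PAIR1 library lay above the highest KIRA9 library in 14 of the 14 most abundant, 22 of the 27 and 13 of the 18, or 49 of 59 in all, where 21.2% of the 13760 IDs tested and 51.5% of the 1495 raised IDs met this. Among the 14 most abundant, shares ran from 50.6% to 79.9% with PAIR1 and from 4.72% to 29.4% with KIRA9.

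Single PAIR1 libraries also decided the shares of some abundant members. The 79.9% belonged to a member at 153, 103 and 95.4 CPM with PAIR1, against 124, 124 and 130 CPM in induced and 74.9, 89.7 and 84.5 CPM in uninduced libraries. Only PAIR1 replicate 1 was above the induced libraries, and the share was 37.9% without it. The member with the lowest KIRA9 share of the 14 stood at 39.6, 63.2 and 37.6 CPM with PAIR1, and its PAIR1 share was 59.9% with all libraries and 29.6% without PAIR1 replicate 2. In all, leaving out 1 PAIR1 library lowered the share over 1.5 times in 7 members, 2 of them at 50 CPM or more. It took the share of 33 members under the limit of 50%, and leaving out 1 KIRA9 library took the share of 16 members over 30%. These alternatives were chosen after seeing the data.

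With PAIR1 the 3 libraries lay above all 3 uninduced libraries in 50 members (21.6% of IDs tested, 62.1% of raised IDs) and below all 3 induced libraries in 34 (39.8% and 91.8%). With KIRA9 they lay below all 3 induced libraries in 58 members (44.6% and 96.4%), above all 3 uninduced libraries in 21 (17.3% and 35.9%) and below them in 2 (17.6% and 8.03%). These counts use the levels that chose the members and are given as a description. By mean level PAIR1 was at or above induced cells in 2 members, and the rule itself places the PAIR1 mean above the uninduced mean in each member. The KIRA9 libraries lay above the uninduced ones in 35.6% of members, a share near that of raised IDs.

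**Figure D4:**
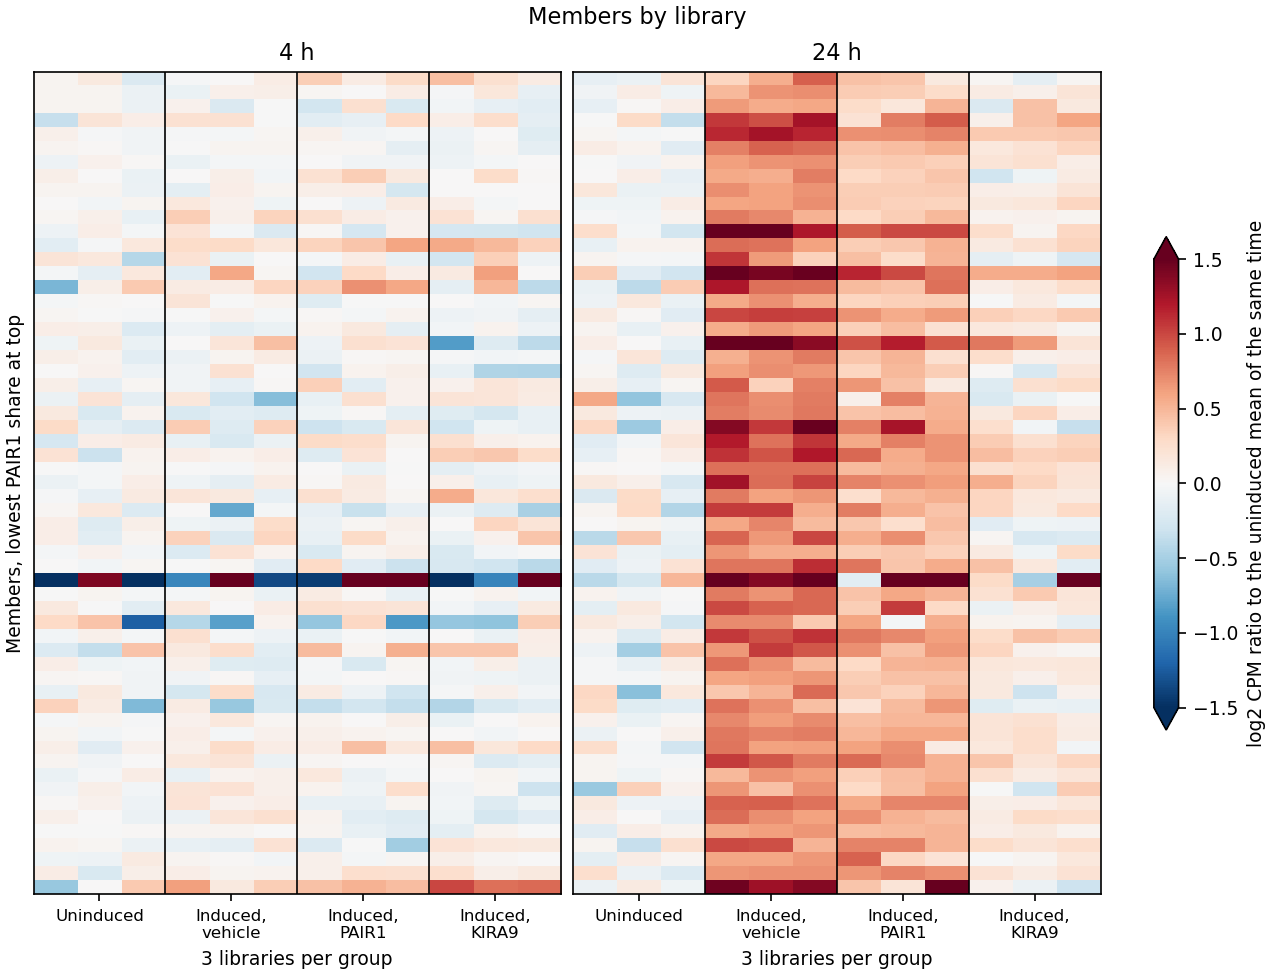
log2 ratio of CPM to the uninduced mean of the same time for the 59 members (rows, ordered by PAIR1 share) in the 12 libraries of each time (columns, 3 per group), with the colour scale ending at -1.5 and 1.5. At 24 h the induced columns are the reddest, PAIR1 columns intermediate and KIRA9 columns pale. At 4 h the groups differ less in most rows. ENSRNOG00000048561 has some libraries at the red end of the scale at 4 h as well.

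Applying the rule to 2 libraries per group and reading the chosen IDs in the third gave a measure on libraries that took no part in the choice. Leaving out replicates 1, 2 and 3 of all 4 groups, the rule chose 75, 85 and 79 IDs, of which 30, 31 and 27 were among the 59. The median PAIR1 share went from 57.8%, 57.2% and 60.9% in the libraries that chose them to 43.2%, 40.9% and 40.1% in the libraries left out. The median KIRA9 share went from 19.7%, 15.7% and 19.2% to 14.3%, 20.7% and 13.2%. Left-out medians cover the 72, 82 and 75 chosen IDs whose left-out induced library lay above the uninduced one. Medians of raised IDs were limited in the same way. For comparison, the raised IDs of the same choice had PAIR1 medians of 24.4%, 26.7% and 26.1% and KIRA9 medians of 7.01%, 9.21% and 8.46% in the left-out libraries.

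In the left-out libraries both share limits were met by 15 of 75, 15 of 85 and 17 of 79 chosen IDs, against 6.63%, 6.84% and 8.13% of the raised IDs. PAIR1 lay above KIRA9 in 60 of 75, 72 of 85 and 68 of 79 chosen IDs, against 81.6%, 81.9% and 85.4% of raised IDs. The chosen IDs thus had a larger median share than raised IDs with PAIR1 and also with KIRA9, and the order of the compounds was about as frequent as in raised IDs. These are single libraries, and no test was made.

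Of the 59, 6 met the rule with each of the 12 libraries at 24 h left out in turn. ENSRNOG00000028105 and the member at 73.1% and 10.3% described above were among them. The 6 had induced levels of 44.1 to 261 CPM, ratios of 1.54 to 1.82, PAIR1 shares of 56.1% to 73.1% and KIRA9 shares of 10.3% to 24.3%. One of the others stood at 99.4, 106 and 111 CPM in uninduced, 183, 177 and 180 in induced, 149, 158 and 158 in PAIR1 and 121, 127 and 115 in KIRA9 libraries. Its 4 groups did not overlap at 24 h. These 6 were picked after their values were seen.

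The scaling of the libraries moved the choice. By CPM over the column total the median ID tested was 0.14 higher (log2) in induced than in uninduced cells at 24 h, and with TMM scaling, which assumes that most genes keep their level, this was 0.00. With TMM-scaled CPM 59 members kept at least 50% with PAIR1, but 40 kept at most 30% with KIRA9, 29 rose 1.5-fold or more and 15 met the whole rule. The smallest ratio of a member was then 1.37, so each member was still above uninduced cells by that measure. The median shares were 67.7% with PAIR1 and 25.5% with KIRA9, and of the 6 members above 3 met the rule under both scalings.

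Most members stood higher at 24 h than at 4 h in induced cells, and fewer did with PAIR1. The median ratio of 24 h to 4 h CPM, on the log2 scale, was 0.66 in induced cells against 0.14 over the IDs tested. It was 0.37 against 0.03 with PAIR1, 0.05 against -0.02 with KIRA9 and -0.10 against -0.01 without induction. All 3 libraries at 24 h lay above all 3 at 4 h in 54 members of induced cells (43.0% of IDs tested) and below in 0 (26.5%). The PAIR1 libraries lay above in 41 members (26.1%) and below in 1 (20.4%), and those of KIRA9 above in 17 (20.3%) and below in 12 (22.6%). In uninduced cells 17 members lay lower at 24 h (19.5%) and 6 higher (16.7%). The 24 h side of these values was used by the rule, so they are not tested here.

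At 4 h, in libraries that the rule did not use, the members showed next to none of this pattern. Counts were tested with edgeR's quasi-likelihood test and Benjamini-Hochberg adjustment over all 13760 IDs tested, at an adjusted p below 0.05, and each of the 59 members passed the filter on low counts. Added over the members, the 4 h levels were 1479 ± 22.8 CPM in uninduced, 1488 ± 10.7 in induced, 1501 ± 14.3 in PAIR1 and 1456 ± 13.4 in KIRA9 cells (SD, n = 3).

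Induction changed 0 of the 59 members at 4 h by edgeR, where 0.298% of IDs tested were called (0.0363% higher and 0.262% lower). All 3 induced libraries lay above all 3 uninduced ones in 2 members (5.06% of IDs tested) and below them in 0 (6.60%). DESeq2 called 0 as well, with 1 member left without an adjusted p. At an unadjusted p below 0.05 edgeR gave 2 higher and 1 lower, which is 5.08% of the members against 6.05% of IDs tested. The median log2 change was 0.04 over the members and 0.00 over all IDs, with 42 members above 0 (71.2%, against 51.0% of IDs tested). For 57 members the upper end of the 95% interval of the 4 h change lay below the 24 h log2 ratio, so a rise of the 24 h size was outside the interval for these. The 24 h ratio had been chosen for being high. It came from CPM over the column total, whereas the 4 h interval used TMM scaling. By CPM the median ID tested was 0.14 higher (log2) in induced than in uninduced cells at 24 h, against 0.00 with TMM scaling.

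**Figure D5:**
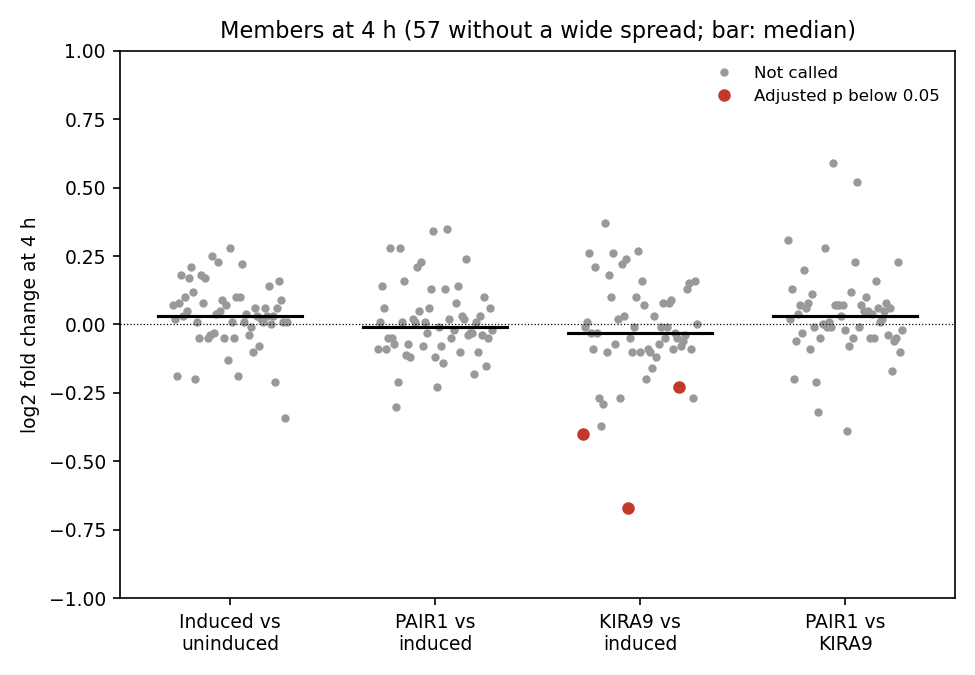
log2 fold changes at 4 h (y axis) of the 57 members without a wide spread in 4 comparisons (points; bars, medians), with members at an edgeR adjusted p below 0.05 in red. The medians lie between -0.03 and 0.03, and the 3 red points are all lower with KIRA9 than with vehicle.

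PAIR1 changed 0 of the 59 members relative to induced vehicle cells at 4 h by edgeR (3.20% of IDs tested were called, 2.31% higher and 0.887% lower) and 0 by DESeq2, which left 1 member without an adjusted p. All 3 PAIR1 libraries lay below all 3 induced ones in 2 members (9.37%). At an unadjusted p below 0.05 edgeR gave 3 higher and 2 lower, or 8.47% of members against 13.1% of IDs tested. The median log2 change was 0.01, against -0.00 over all IDs.

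KIRA9 lowered 3 members relative to induced vehicle cells at 4 h and raised 0 by edgeR (11.7% of IDs tested were called). By direction 5.66% of IDs tested were called lower and 6.01% higher, and members were not called more often than other IDs. DESeq2 called 2, with 1 member left without an adjusted p. All 3 KIRA9 libraries lay below all 3 induced ones in 8 members (13.8%). At an unadjusted p below 0.05 edgeR gave 6 lower and 3 higher, or 15.3% of members against 23.6% of IDs tested, and the median log2 change was -0.03 against -0.00. This comparison and the 2 before it share the induced 4 h libraries.

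ENSRNOG00000012494 had the largest of the 3 falls. It stood at 7.30, 8.24 and 9.93 CPM in induced and at 4.08, 6.34 and 5.55 CPM in KIRA9 libraries at 4 h, without overlap. The log2 change was -0.67 ± 0.16 (SE) (edgeR adjusted p = 0.0083). Uninduced libraries stood at 6.94, 8.08 and 6.80 CPM and PAIR1 libraries at 6.91, 8.59 and 8.41 CPM, of which 3 of the 6 lay below the lowest induced library. The call was lost without KIRA9 replicate 1 (log2 change -0.52, edgeR adjusted p = 0.063) or without induced replicate 3 (-0.54, edgeR adjusted p = 0.064). With the titles as the source of the times, the edgeR and DESeq2 adjusted p over the alternatives ran from 0.0020 to 0.11. The time characteristic gave an edgeR adjusted p of 5.4e-07. It places the 24 h induced libraries, which helped choose the members, in this comparison, so that value is no support. At 24 h this ID had the second largest ratio, 2.91, and kept 53.9% of the rise with PAIR1 and 24.8% with KIRA9.

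ENSRNOG00000001435 stood at 13.0, 15.8 and 13.5 CPM in induced and at 12.5, 9.84 and 9.80 CPM in KIRA9 libraries at 4 h, again without overlap but with 1 KIRA9 library close to the induced range. The log2 change was -0.40 ± 0.12 (SE) (edgeR adjusted p = 0.033). It was not called without KIRA9 replicate 2 or 3 (log2 change -0.34, edgeR adjusted p = 0.14 for each), without induced replicate 2 (-0.32, edgeR adjusted p = 0.15) or without induced replicate 3 (-0.43, edgeR adjusted p = 0.059), nor with only the compared libraries fitted (edgeR adjusted p = 0.078), within a range of 0.010 to 0.15 over all alternatives. At 24 h the uninduced libraries stood at 9.16, 7.85 and 9.90, the induced at 13.7, 14.5 and 14.1, the PAIR1 at 11.2, 12.6 and 11.6 and the KIRA9 at 9.10, 7.61 and 10.2 CPM. The KIRA9 libraries went beyond both ends of the uninduced range and the PAIR1 libraries lay between both vehicle groups.

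The third call was the member at 73.1% and 10.3% described above, with a log2 change of -0.23 ± 0.07 (SE) and 0.036 as its edgeR adjusted p. It stood at 23.0, 20.9 and 21.4 CPM in induced, 19.4, 17.4 and 19.0 in KIRA9 and 18.5, 18.4 and 20.5 in PAIR1 libraries at 4 h. PAIR1 and KIRA9 libraries overlapped, and both lay below the induced ones. The call was lost without KIRA9 replicate 2 (edgeR adjusted p = 0.18) or 3 (0.067) and without induced replicate 1 (0.16) or 3 (0.072). It was also lost with DESeq2 (adjusted p = 0.074), without the filter on low counts (edgeR adjusted p = 0.057) and with only the compared libraries fitted (0.097). With the times of the titles, the edgeR and DESeq2 adjusted p ran from 0.034 to 0.18 over the alternatives. The time characteristic gave an edgeR adjusted p of 1.8e-12, again with the 24 h induced libraries in the comparison. Over the 3 calls, 0 remained without induced replicate 3 and 1 remained without KIRA9 replicate 2 or without KIRA9 replicate 3. Without the 6 libraries that share raised IDs 0 remained as well, with log2 changes of -0.54, -0.42 and -0.24 in the order given here.

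Between PAIR1 and KIRA9, the 1 pair of compounds at matched times, no member was called at 4 h with all libraries. By edgeR 0 of 59 members were called (2.06% of IDs tested were, 0.821% higher and 1.24% lower with PAIR1), and DESeq2 called 0 with 28 members left without an adjusted p. The libraries did not overlap in 5 members higher with PAIR1 (8.96% of IDs tested) and 3 higher with KIRA9 (9.72%). At an unadjusted p below 0.05 edgeR gave 3 higher and 2 lower with PAIR1, or 8.47% of members against 12.3% of IDs tested. The median log2 difference, PAIR1 minus KIRA9, was 0.03 over the members and 0.00 over all IDs, with a median 95% interval of 0.24 to either side for a single member. At 24 h the median log2 ratio of PAIR1 to KIRA9 was 0.35 by choice of the members. That 24 h ratio lay above the 4 h interval in 43 members and inside it in 16, for which the 4 h data leave room for a difference of that size. Here too the ratio came from CPM over the column total and the interval from TMM scaling.

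For ENSRNOG00000028105 the difference was 0.06 with a 95% interval of -0.02 to 0.14 (edgeR adjusted p = 0.60), against a log2 ratio of 0.28 at 24 h. Its 4 h libraries stood at 154, 152 and 159 CPM in uninduced, 154, 153 and 161 in induced, 155, 145 and 154 in PAIR1 and 140, 147 and 151 in KIRA9 cells, with overlap between PAIR1 and KIRA9. For ENSRNOG00000012494 it was 0.59 with an interval of 0.25 to 0.93 (edgeR adjusted p = 0.072), the smallest adjusted p among the members, and the log2 ratio of 0.46 at 24 h lay inside that interval. Without KIRA9 replicate 2 it was called (0.73, edgeR adjusted p = 0.050, range over alternatives 0.050 to 0.30). For ENSRNOG00000001435 it was 0.31 with an interval of 0.06 to 0.56 (edgeR adjusted p = 0.26). With all libraries neither was called, and a missed threshold does not show that the compounds acted alike. The doses are not stated, so these values compare the treatments as applied.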

How the data were processed

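Poly(A) RNA libraries of 24 INS1 samples were counted per Ensembl gene ID, and the authors deposited raw read counts without normalization. HISAT2 and HTSeq are named without version per the submitters' processing notes, while genome build, annotation and strandedness are not given in the sources used here. Overlapping or near-identical genes may share reads. Groups and replicates came from the titles. CPM was the count over the column total. Counts were tested with edgeR 4.0.16 (R 4.3.3): filterByExpr at a minimum count of 10 kept 13760 IDs, with TMM scaling, 1 mean per group and 24 libraries in 1 fit, and Benjamini-Hochberg adjustment. DESeq2 1.42.0 was an alternative. The test was checked on simulated counts. Figures and summaries were made in Python 3.11.15.

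The members and lists were chosen with earlier results of these data known. Printed IDs are, by rule, the member with the largest ratio, the one with the highest level and the 2 with the smallest p among those lower with KIRA9 at 4 h. Other members are described without their ID. The planned gene lists, cell type markers and promoter motifs need gene names and were not used here, and no sequence is printed for the same reason. Nothing in the labels says that replicates were separate cultures, and the spread behind the p-values may thus be technical. Limits from counts cover counting error only, since PCR copies are not independent molecules.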

Additional observations from a re-analysis of the deposited data

How the results depend on the processing

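Between 4 h groups, the number of members called for induction stayed at 0, for PAIR1 against induced cells at 0 and for PAIR1 against KIRA9 at 0 under the alternatives run, except as follows. With the time characteristic in place of the title for the induced vehicle libraries, 49 members were called for induction, and against those libraries 44 with PAIR1 and 47 with KIRA9, since the 24 h libraries that chose the members then stand in the 4 h comparison. For KIRA9 against induced cells 3 were called, with 0 to 3 when single libraries were left out, 1 when only the compared libraries were fitted, 1 at an adjusted p below 0.01 and 0 without the 6 libraries that share raised IDs. For PAIR1 against KIRA9 the leave-one-out counts were 0 to 1, the 1 being ENSRNOG00000012494 without KIRA9 replicate 2 (log2 difference 0.73, edgeR adjusted p = 0.050, range over alternatives 0.050 to 0.30).

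The number of members was 54 to 69 with 1 library at 24 h left out, of which 38 to 55 were among the 59. Leaving out 1 replicate of all 4 groups gave 75 to 85, of which 27 to 31 were among the 59. That alternative was chosen after seeing the data, as was leaving out the 2 members with a wide spread. The number was 39 with TMM-scaled CPM, of which 15 were among the 59, and 89 from 1 CPM. It was 10 at a PAIR1 share of at least 70% and 31 at a KIRA9 share of at most 20%. With the time characteristic it was 10, of which 4 were among the 59. Without the 4 libraries at 24 h that share raised IDs it was 67, of which 23 were among the 59. The median shares with TMM-scaled CPM were 67.7% for PAIR1 and 25.5% for KIRA9, and 55.9% to 59.1% and 17.0% to 19.1% with single libraries left out. Where no reason is given above, the cause was not tested.

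The replicate numbers did not pair the samples, as deviations of same-numbered libraries correlated at -0.209 to 0.0959. With the replicate block 0, 0, 3 and 0 members were called for induction, PAIR1, KIRA9 and PAIR1 against KIRA9, as without it.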
